A study of Mus musculus with 16 samples.

Results

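m6A peaks in the 5' UTR were examined in MeRIP-seq of mouse peri-infarct cortex. A member is a peak of one of the 8 IP peak lists whose exonic midpoint lay in the 5' UTR of the protein-coding transcript with the longest coding sequence (GENCODE M39, GRCm39) of the gene that the peak overlapped most on its strand. Of the 169564 peaks in the 8 lists, 7162 (4.22%) were members, and they lay in 2328 of the 11055 protein-coding genes with a peak placed on that transcript. Cortical peri-infarct tissue came from male C57BL/6J mice aged 6 to 8 weeks, either after a sham operation without insertion of the filament (Sham) or after 2 h with a nylon filament in the middle cerebral artery, followed by 0, 6 or 24 h of reperfusion (MCAO/R, given as 0 h, 6 h and 24 h). The study used 6 mice per surgery group and sequenced 2 IP and 2 input libraries per group. Whether a library holds 1 mouse or a pool is not given in the sources used here, so p-values measure only the spread between these libraries, which may be technical. The input libraries were not analysed here.

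N6-methyladenosine (m6A) is set on mRNA by the METTL3/METTL14 writer complex, mostly within the motif RRACH, and is best known near stop codons and in 3' UTRs. In the 5' UTR, the stretch that the small ribosomal subunit scans from the cap to the start codon, m6A has been linked to translation that bypasses the cap-binding complex during stress such as heat shock. In MeRIP-seq an antibody pulls down fragments that carry m6A, and a peak is a stretch where IP reads exceed input reads. The same antibodies also bind m6Am, a cap-adjacent nucleotide, so a peak at the very start of a transcript cannot be assigned to m6A by this method. Each deposited peak carries a score on a scale that the sources used here do not define. The score percentile, the share of the peaks in the same list that scored lower, was therefore the only use made of it, and it is neither a methylation level nor an abundance. The lists hold no read counts, and sequencing depth is unknown.

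The RRACH sites below, taken from GRCm39 and written 5' to 3' on the transcript strand as DNA, lie in the 5' UTRs with the highest-ranking members found in all 8 lists. RRACH stands for A or G, A or G, A, C, and then A, C or T, which makes 12 words of 5 letters. Each sequence shows in capitals the RRACH site nearest the centre of the bases that all 8 peaks share, with 8 nt of flank on each side. Sites of the same transcript strand alone were searched, and a match does not show which adenosine was methylated.
Gpr22 (chr12:31762255-31762275, minus strand): agaattatGGACActattgat
Zfp260 (chr7:29803879-29803899, plus strand): cacgagagAAACTgtaagaaa
Lrrc4c (chr2:97298238-97298258, plus strand): ctgatgtcAGACCtgcggggt
Neurod6 (chr6:55657968-55657988, minus strand): caaaatgaAAACTgattattg
Grin2b (chr6:136148716-136148736, minus strand): attgccggAGACTccttaaat
Zdhhc5 (chr2:84541536-84541556, minus strand): gagattgaAAACAggcaatac
Hivep2 (chr10:14003058-14003078, plus strand): tggctgttGAACTttgctgta
Zbed6 (chr1:133587427-133587447, minus strand): ccccatagAAACTggaggaaa
The central adenosine of these sites lay from 51 nt (*Neurod6*) to 781 nt (*Zdhhc5*) upstream of the start codon. The 325 nt shared by the 8 peaks of *Zfp260* held 10 RRACH sites and the 325 nt of *Gpr22* held 8, whereas the 150 nt of *Grin2b* held 1. In *Rpl36al*, *Msantd4* and *Pcdh9*, 3 further genes among the 12 highest-ranking, the shared 5' UTR bases (405, 53 and 7 nt) held no RRACH site. *Pcdha8*, the remaining gene of the 12, was not searched for such a site.

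The first question was how many peaks fall in the 5' UTR in each group. The 5' UTR held 3.76% and 4.05% of the peaks of the Sham lists (706 and 816 members), 4.16% and 4.05% at 0 h (825 and 976), 4.56% and 4.46% at 6 h (1013 and 1034), and 4.23% and 4.43% at 24 h (806 and 986). Both 6 h lists lay above the other 6 lists, and Sham replicate 1 was the lowest. The mean share was 3.90% ± 0.204 in Sham, 4.11% ± 0.0745 at 0 h, 4.51% ± 0.0743 at 6 h and 4.33% ± 0.146 at 24 h (SD, n = 2 each). The spread between groups exceeded that within pairs of replicates (p = 0.00952, exact permutation, one-sided, over all 105 divisions of the lists into 4 pairs and the smallest p it can give; adjusted p = 0.0381 over the 4 measures compared among groups). With 2 lists against 2 the smallest possible p is 0.333, so no single time was tested against Sham. The call was lost when fewer peaks of each list were used. The lists ran from 18775 peaks in Sham replicate 1 to 24078 in replicate 2 at 0 h. With equal lengths, the 18775 highest-scoring peaks of every list, the means were 3.81%, 3.85%, 4.16% and 4.11% in the same order, and the group test was not passed (p = 0.133, same exact permutation test), and with the higher-scoring 50% of each list they were 3.02%, 3.16%, 3.50% and 3.26% (p = 0.124, same exact permutation test). Both 6 h lists still lay above the other 6 with the higher-scoring 50%. With equal lengths they did not, as replicate 2 at 6 h (4.07%) lay below both 24 h lists (4.13% and 4.09%). Leaving out a single list gave p from 0.00952 to 0.114 (same exact permutation test) and ended the call for Sham replicate 1, for either list at 0 h or 6 h and for replicate 2 at 24 h, and without Sham replicate 1 the mean MCAO/R excess went from 0.410 to 0.266 percentage points (p = 0.105, same exact permutation test). Of the 12 neuron marker genes, 1 and 2 held a peak anywhere in the Sham lists and 3 to 5 in the MCAO/R lists, and the part of tissue composition in the shares was not tested. In bulk tissue fewer cells of a type and less RNA per cell cannot be told apart.

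**Figure D1:**
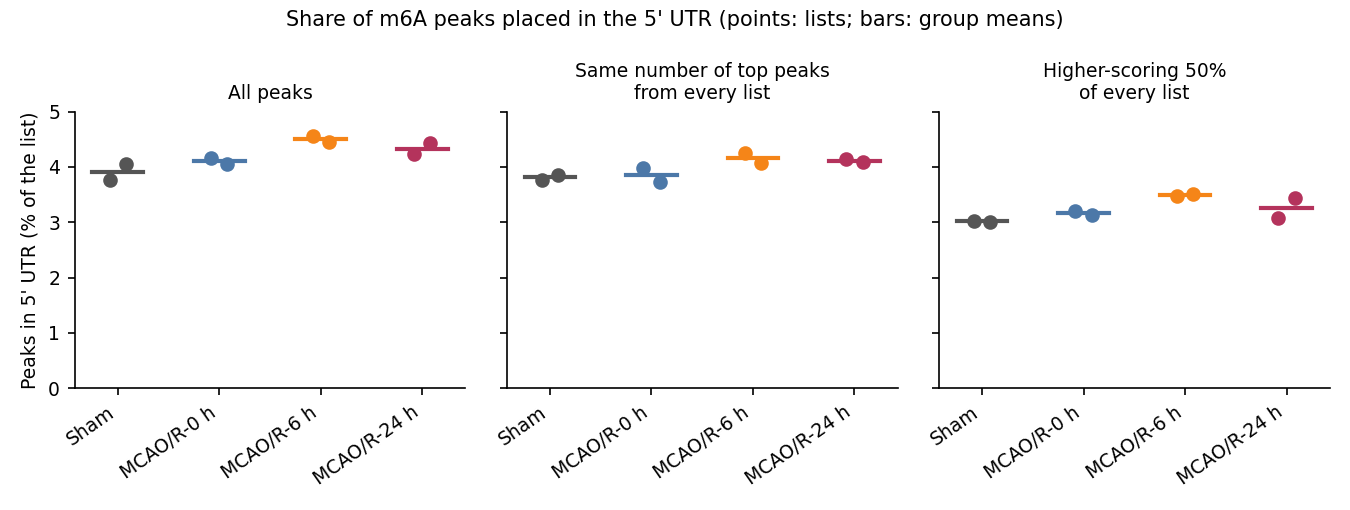
Share of the peaks of a list (%) placed in the 5' UTR, by group, for all peaks, for the 18775 highest-scoring peaks of every list and for the higher-scoring 50% of every list. Points are the 2 lists of a group and bars their mean; with all peaks both 6 h lists (4.56% and 4.46%) lie above the other 6, and in the other panels the group means differ by less.

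The 5' UTR held fewer peaks than its length would give. Among the peaks placed on a transcript, 4.26% to 5.29% lay in the 5' UTR, while evenly spread midpoints on those transcripts gave 6.99% to 7.24%. The mean log2 ratio was -0.56 ± 0.10 (SD, n = 8), negative in 8 of 8 lists (p = 0.00781, exact permutation of signs over the lists, two-sided, and the lowest value possible with 8). The genes with a member had long 5' UTRs, with a median of 581 to 651 nt per list against 282 to 294 nt over all genes with a placed peak. A long 5' UTR offers more room for a midpoint, and the part of that in the difference of lengths was not tested.

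Within the 5' UTR, members lay closer to the start codon than even placement would put them. The median distance from the midpoint to the first base of the start codon was 169 to 195.5 nt, and that to the transcript start was 369 to 438 nt. Midpoints within 100 nt upstream of the start codon made up 31.8% ± 1.31 of the members (SD, n = 8; 29.6% to 33.3%) against 23.7% to 25.6% for even placement in the same 5' UTRs. The mean log2 ratio was 0.36 ± 0.09 (SD, n = 8), positive in 8 of 8 lists (p = 0.00781, exact permutation of signs, two-sided). The group test was not passed for this share (32.5%, 31.2%, 31.8% and 31.8% for Sham and the 3 times in order; p = 0.886, exact permutation of groups, one-sided). In 18.1% to 22.0% of the members of a list the peak covered a base of the start codon itself, so that its signal may belong in part to the coding sequence. At the other end, 8.78% to 11.8% of the midpoints lay within 100 nt of the annotated transcript start, where m6A and m6Am cannot be told apart. Long peaks with a midpoint farther in can also reach the transcript start and are not in this count.

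**Figure D2:**
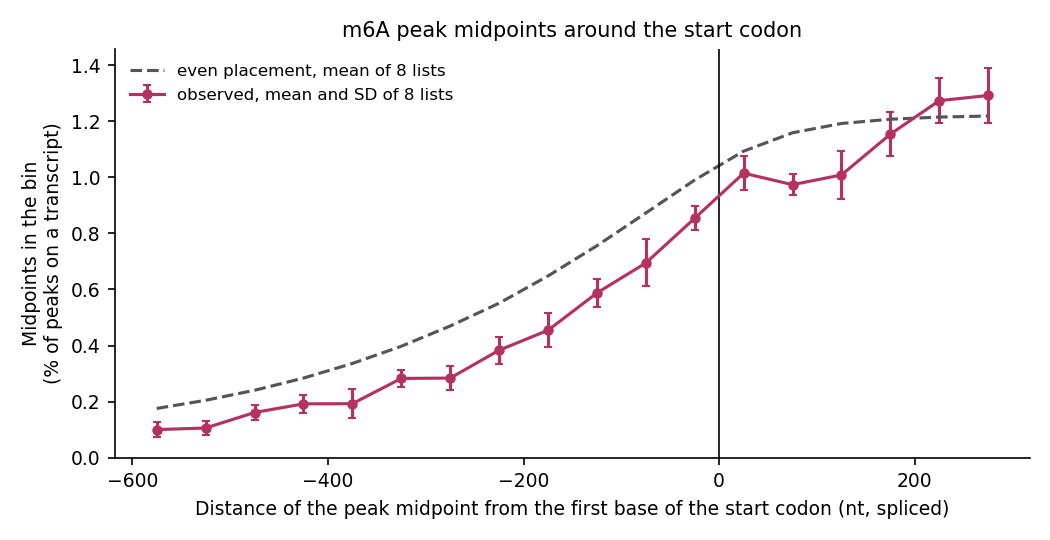
Share of midpoints (% of the peaks placed on a transcript) in bins of 50 nt by the distance from the first base of the start codon, negative values upstream, as mean and SD of 8 lists, with the even placement dashed. The observed share lies below even placement in every bin upstream of the start codon, with 0.854% against 0.990% in the bin centred at -25 nt and 0.101% against 0.176% in that at -575 nt. Downstream it lies below in the bins centred at 25 to 175 nt (0.974% against 1.16% at 75 nt) and above in those at 225 and 275 nt.

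The exons of the 5' UTR that held the members were also compared with even placement. Members had their midpoint in the first exon in 64.6% to 71.7% of cases per list, where even placement in the same 5' UTRs gave 78.7% to 81.7%. More than 100 nt from any exon junction lay 72.7% to 76.6% of the members, against 76.4% to 78.7% for even placement. Here even placement used every base of the 5' UTR, also those too near the transcript start for the midpoint of a whole peak. Its first-exon share may therefore be too high, and part of the difference may come from that. The shares were compared without a test.

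Members ranked low and recurred less than other peaks. Their median score percentile was 37.8 to 40.6 per list, and that of the other peaks placed on a transcript was 51.9 to 53, a mean difference of -13.4 ± 1.15 (SD, n = 8; lower in 8 of 8 lists, p = 0.00781, exact permutation of signs, two-sided). The lowest-scoring 10% of a list held 15.4% ± 1.06 of its members and the highest-scoring 10% held 5.28% ± 0.372 (SD, n = 8). The group means of the member median lay between 39 and 39.6, and the group test was not passed (p = 0.933, exact permutation of groups, one-sided). Members were also shorter, with a mean difference in exonic length of -30.6 ± 4.06 nt (SD, n = 8; 142 against 173 nt; p = 0.00781, exact permutation of signs, two-sided).

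A peak that overlapped a peak of the other replicate was seen for 36.8% to 51.0% of the members of a list and for 51.3% to 63.6% of the other peaks on transcripts. The mean difference was -12.6 ± 1.76 percentage points (SD, n = 8; lower in 8 of 8 lists, p = 0.00781, exact permutation of signs, two-sided), though the 2 lists of a pair share their overlaps and are not independent in this measure. Members overlapped a peak in 2.75 to 3.36 of the 7 other lists on average, against 3.64 to 4.05 for the other peaks. Recurrence and its difference varied with the score. In the lowest-scoring 25% of a list the members recurred in 18.3% ± 4.62 and the other peaks in 25.7% ± 8.55 of cases (SD, n = 8), lower in 7 of 8 lists. Between percentiles 25 and 50 the values were 36.9% and 43.2% (lower in 8 of 8 lists), and between 50 and 75 they were 59.1% and 63.6% (lower in 7 of 8). In the highest-scoring 25% they were 88.4% ± 2.96 and 87.2% ± 3.52 (SD, n = 8), with the members lower in 3 of 8 lists. This split by score was chosen after the data were seen and was not tested. In the higher-scoring 50% of each list the mean difference was -6.29 points (p = 0.00781, exact permutation of signs, two-sided).

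Peaks that shared at least 1 exonic base on a strand were joined into 52776 regions, of which 2826, in 2125 genes, had most of their peaks placed in the 5' UTR. The other 654 members lay in regions with most peaks placed elsewhere. Of the 5' UTR regions, 1675 (59.3%) were in 1 list only, against 53.1% of the CDS regions and 46.0% of the 3' UTR regions. In all 8 lists were 134 (4.74%), in 130 genes, against 8.98% of the CDS regions and 12.5% of the 3' UTR regions. Most genes with a member, 2082 of 2328 (89.4%), also had a peak in the CDS or 3' UTR, and 246 had none there.

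**Figure D3:**
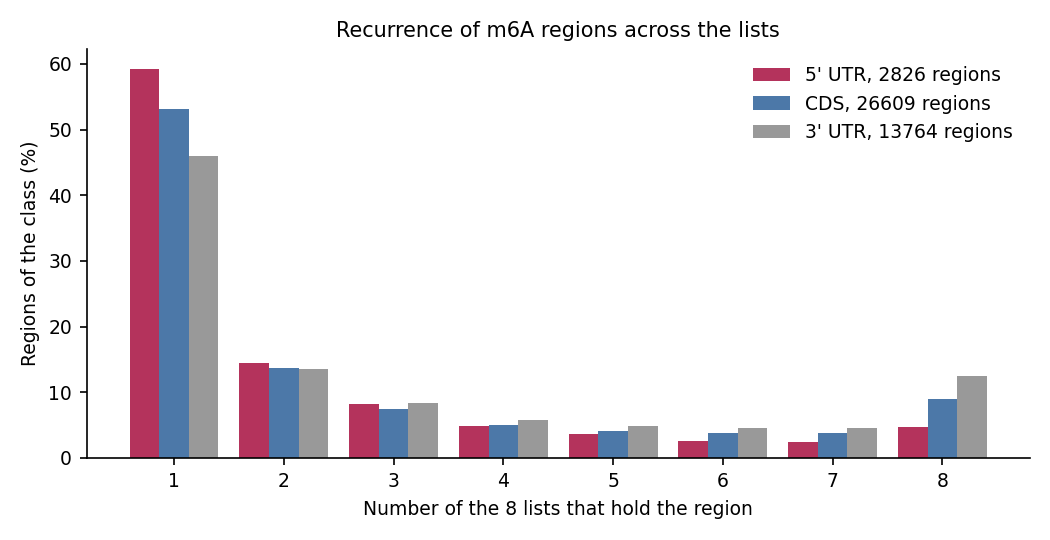
Share of the 5' UTR, CDS and 3' UTR regions (% of the class) by the number of the 8 lists that hold the region. Of the 5' UTR regions 59.3% are in 1 list and 4.74% in all 8, the highest and the lowest share of the 3 classes.

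RRACH sites were denser in the members than in the rest of the same 5' UTRs. The 5' UTR part of the members held 15 to 15.6 sites per kb, and the 5' UTR bases of the same transcripts outside every peak of the 8 lists held 11.2 to 12.1. The mean log2 ratio was 0.42 ± 0.05 (SD, n = 8), positive in 8 of 8 lists (p = 0.00781, exact permutation of signs, two-sided), and the group test was not passed (p = 0.838, exact permutation of groups, one-sided). The narrower word GGACT gave 1.63 to 1.76 against 1.06 to 1.18 per kb, a mean log2 ratio of 0.61 (p = 0.00781, exact permutation of signs, two-sided). Against the other peaks of the same list the direction was the reverse, with 19.1 to 19.6 RRACH sites per kb in CDS and 3' UTR peaks and a mean log2 ratio of -0.32 (p = 0.00781, same exact permutation test). Base composition moved with the density, since G and C made up 55.2% to 56.7% of the members and 60.7% to 61.8% of the uncovered bases, and its part in the result was not tested. At least 1 RRACH site was present in 66.5% to 71.3% of the members and in 63.7% to 66.7% of all windows of the same length in the same 5' UTRs. An upstream ATG was present in 46.9% to 53.1% of the members and in 45.6% to 49.6% of such windows, a comparison made without a test.

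The regions found in more lists differed in sequence from those found in 1. From 1 list to 2 or 3, 4 to 7 and all 8 lists, RRACH density went from 12.2 to 12.8, 15.2 and 18.5 sites per kb, while the share of G and C went from 62.4% to 61.2%, 57.8% and 47.3%. The regions of 1 list, 1675 of the 2826, were thus near the uncovered 5' UTR bases in both. Those bases held 11.2 to 12.1 sites per kb and 60.7% to 61.8% G and C. Over the same steps the median 5' UTR length was 515, 595, 686 and 886.5 nt, the median score percentile 15.5, 29.0, 47.5 and 77.2, and the median exonic length 75, 84, 111 and 200 nt. By word, counted over the peaks of each class, AAACA stood at 1.93 per kb in the regions of all 8 lists and 0.709 in those of 1 list, and AAACT at 1.75 and 0.618. GGACT stood at 1.55 and 1.49 per kb, and GGACC at 1.16 and 1.75. AGACT (2.12 and 1.01), AAACC (1.61 and 0.722), GAACT (1.66 and 0.778) and GAACA (1.48 and 0.632) were, with AAACA and AAACT, the 6 words more than 2-fold denser in the regions of all 8 lists, while GGACT was about as dense in both classes. These values describe classes made by recurrence and have no test.

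**Figure D4:**
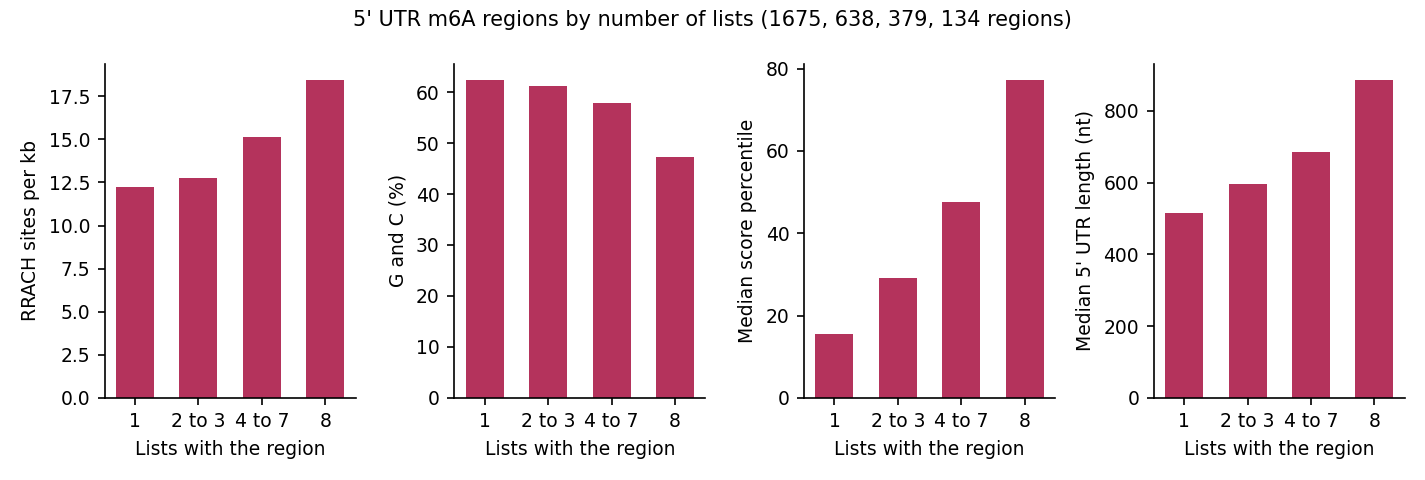
RRACH sites per kb, share of G and C (%), median score percentile and median 5' UTR length (nt) of the 5' UTR regions found in 1, 2 to 3, 4 to 7 and all 8 lists (1675, 638, 379 and 134 regions; bars start at 0). Over these 4 classes RRACH density goes from 12.2 to 18.5 per kb as the share of G and C goes from 62.4% to 47.3%.

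The 12 genes with the highest-ranking region in all 8 lists were *Rpl36al*, *Pcdha8*, *Gpr22*, *Zfp260*, *Lrrc4c*, *Neurod6*, *Grin2b*, *Zdhhc5*, *Hivep2*, *Msantd4*, *Pcdh9* and *Zbed6*. *Grin2b*, which encodes the GluN2B subunit of the NMDA-type glutamate receptor, had its region in exon 2 (chr6:136148494-136148793, minus strand) in a 5' UTR of 924 nt, at a median of 254.5 nt from the start codon. Its score percentile was 98.0 and 97.3 in Sham, 96.4 and 96.0 at 0 h, 96.4 and 95.3 at 6 h, and 96.4 and 96.8 at 24 h. Both Sham values were above the 6 MCAO/R values, within a range of less than 3 percentile points, and another gene on the same strand also overlaps this region. *Gpr22*, an orphan G protein-coupled receptor, had long peaks, of 450 and 675 nt in Sham, 650 and 1000 nt at 0 h, 975 and 975 nt at 6 h, and 550 and 700 nt at 24 h. Its percentile was 98.4 and 99.7 in Sham and 99.6 to 99.96 in MCAO/R (chr12:31761601-31763563, minus strand), so that the groups overlapped. *Neurod6*, a transcription factor of cortical excitatory neurons, had peaks around the start codon, with midpoints from 34 nt upstream to 29 nt downstream of it (chr6:55656457-55658098, minus strand). *Lrrc4c*, a postsynaptic ligand of netrin-G1, had its region in a 5' UTR of 1476 nt, 521.5 nt from the start codon, with percentiles of 99.3 and 97.5 in Sham, 99.2 and 99.5 at 0 h, 98.6 and 97.7 at 6 h, and 98.7 and 99.5 at 24 h. Its groups overlapped. *Zdhhc5*, a protein palmitoyltransferase, had the most distant of the 12, at 822 nt from the start codon (chr2:84541184-84543938, minus strand; percentiles 95.1 to 99.0). *Hivep2*, a zinc finger transcription factor, had the midpoints of its peaks in exon 5, at a median of 302 nt from the start codon, with percentiles from 95.0 to 99.5. The protocadherins *Pcdha8* and *Pcdh9*, cell adhesion proteins of neurons, had percentiles of 98.9 to 99.6 and 93.2 to 98.9. The midpoints of *Pcdh9* ran from 45 nt upstream to 80 nt downstream of the start codon. The region of *Pcdha8* had the same 75 nt in every list, in a 5' UTR of 96 nt. *Zfp260* and *Zbed6*, both zinc finger genes, had percentiles of 98.1 to 99.5 and 92.9 to 99.0, and *Msantd4*, whose function is little known, had 94.4 to 97.2 with midpoints from 25 nt upstream to 34 nt downstream of the start codon. The midpoints of *Zbed6* ran from 213 nt upstream to 37 nt downstream of it. No limma F-test over the groups passed the adjustment for these 12 regions (lowest adjusted p = 0.662, *Gpr22*).

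*Rpl36al*, which encodes a ribosomal protein, had the highest minimum percentile over the 8 lists (99.7 to 99.95; *Gpr22* ranked above it in 4 lists), with a peak of 405 nt in 7 lists and 455 nt in replicate 2 at 6 h (chr12:69230780-69232674, minus strand). In all 8 lists this peak began at the first base of the annotated transcript, so m6A and m6Am cannot be told apart at its 5' end. The 5' UTR of *Rpl36al* lies opposite an exon of *Mgat2* on the plus strand. Reads of the 2 genes can be told apart only if the peak caller used strand, which the sources used here do not give. The coding sequence of *Rpl36al* also has a near-identical paralog, *Rpl36a*, so that reads reaching into it are uncertain. Over all members, 11.6% to 15.6% had an exon of the opposite strand at the midpoint, against 4.56% to 4.93% of the other peaks on transcripts, and 19 of the 134 regions of all 8 lists did. Without such members the RRACH ratio was 0.47 (p = 0.00781, exact permutation of signs, two-sided).

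Next, 10 lists of genes for stress responses, signalling, excitability and RNA methylation were examined. Of the 11229 protein-coding genes with any peak, 18.9% had a 5' UTR region. Among voltage-gated potassium channels 17 of 34 genes with a peak had one, among glutamate receptors and postsynaptic scaffolds 11 of 34, among Wnt and beta-catenin genes 10 of 32, among immediate early genes 9 of 29 and among hypoxia and angiogenesis genes 6 of 21. The integrated stress response (4 of 18, 22.2%) was also above the share of all genes. Below it were translation initiation factors (5 of 29) and m6A writers, erasers and readers (3 of 19). Cell death, p53 and ferroptosis (3 of 23) and heat shock proteins and chaperones (2 of 22) were below it too. These counts have no test, and 5' UTR length differs between genes.

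Among Wnt genes, *Gsk3b* and *Fzd3* had a region in all 8 lists. The region of *Gsk3b*, the kinase that marks beta-catenin for degradation, lay in exon 1 (chr16:37910463-37910712, plus strand), 337.5 nt from the start codon in a 5' UTR of 1525 nt. Its percentile was 84.6 and 90.5 in Sham, 78.4 and 95.3 at 0 h, 93.0 and 91.1 at 6 h, and 82.4 and 76.3 at 24 h. The 24 h values were below both Sham values, and the difference from Sham, on normal scores of the ranks, was -0.34 ± 0.33 (SE; limma, Benjamini-Hochberg adjusted p = 0.814). The 50 nt shared by its 8 peaks held no RRACH site. A second region of *Gsk3b*, 1288 nt from the start codon, was listed in replicate 1 at 6 h and in replicate 1 at 24 h alone. *Fzd3*, a Wnt receptor, had percentiles of 83.2 and 88.3 in Sham, 78.6 and 85.4 at 0 h, 94.8 and 97.5 at 6 h, and 84.3 and 95.6 at 24 h. Both 6 h values were above both Sham values (limma F-test over the 4 groups, adjusted p = 0.672).

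*Bcl2*, an inhibitor of apoptosis, had a 5' UTR region in all 8 lists (chr1:106640498-106641697, minus strand), with percentiles of 81.8 and 95.2 in Sham and 77.6 to 88.2 in MCAO/R. Sham and MCAO/R values overlapped. *Grm5*, the metabotropic glutamate receptor mGluR5, had percentiles of 67.9 to 96.2 in a 5' UTR of 103 nt. *Kcna4*, a voltage-gated potassium channel, had 5.66 and 54.1 in Sham and 42.3 to 88.4 in MCAO/R, with groups that overlapped. *Pabpc1*, the cytoplasmic poly(A)-binding protein, had a region of 50 or 75 nt in all 8 lists that ranked low, from 0 to 55.8, opposite an exon of *Gm62541*. *Cebpg*, a transcription factor of the stress response, had its region in 7 lists and lacked it in Sham replicate 1. *Vegfa*, the main angiogenic growth factor, also had its region in 7 lists and lacked it in replicate 2 at 6 h. *Rbm15*, a subunit of the m6A writer complex, had a region in 6 lists, opposite an exon of *Gm65068*. *Fosb*, an immediate early transcription factor, had one in 5 lists, namely Sham replicate 2 and all 4 lists at 0 h and 6 h. Of the heat shock and chaperone genes, *Dnajb5* had its region in 1 list. *Trp53*, *Slc7a11*, *Gpx4* and *Ythdf1*, which the study names, had no member in any list. *Slc7a11* and *Ythdf1* had other peaks in 8 lists, *Trp53* in 2 and *Gpx4* in none.

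Of the cell type markers, *Gad1*, the GABA-synthesising enzyme of inhibitory neurons, had a 5' UTR region in 5 lists, and *Mbp* of myelin and *Tek* of endothelium in 1 list each. The astrocyte, microglia and infiltrating leukocyte lists had no 5' UTR region, although 1 microglia marker had a member in Sham replicate 1 and in replicate 1 at 0 h. Peaks anywhere in the gene were listed for 3 to 5 of 8 astrocyte markers, 4 to 6 of 10 oligodendrocyte and precursor markers, 2 to 5 of 8 microglia markers, 3 to 5 of 8 endothelial and mural markers and 0 or 1 of 9 infiltrating leukocyte markers. A peak list does not give RNA levels, so the cortical label could be checked only by these counts.

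Regions held by both lists of 1 time and by no Sham list were counted as gained, and those held by both Sham lists and no list of that time as lost. At 0 h, 76 of 1722 5' UTR regions (4.41%) were gained, against 3.84% of all regions, and 30 (1.74%) were lost, against 1.87%. At 6 h, 107 of 1864 (5.74%) were gained, against 4.94%, and 41 (2.2%) lost, against 2.03%. At 24 h, 72 of 1785 (4.03%) were gained, against 3.79%, and 47 (2.63%) lost, against 2.76%. The shares of the 5' UTR regions were thus near those of all regions at each time, and the 3 comparisons share the Sham lists. The counts rest on both lists of a group, since leaving out 1 of them lets the other decide alone. Without replicate 1 at 6 h 483 5' UTR regions were gained at that time, and without Sham replicate 1 326 were lost at 24 h. For these settings the share over all regions is not given here.

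By the lower percentile in the 2 lists, the leading gained 5' UTR regions were in *Catspere2*, *Mef2c* and *Paqr8* at 0 h, in *Catspere2*, *Msl3l2* and *Jarid2* at 6 h, and in *Pcdh10*, *Nfib* and *Arhgap11a* at 24 h. The region of *Catspere2*, a subunit of the sperm calcium channel CatSper, was listed at 95.8 and 98.0 at 0 h and 96.2 and 95.8 at 6 h (chr1:177811189-177819093, plus strand). It always had 130 exonic nt with the midpoint in exon 1. Its peaks crossed an intron and were longer than the 5' UTR of 119 nt, so they were not confined to it. The region was in no Sham and no 24 h list, while the gene had other peaks in all 8 lists. *Mef2c*, a transcription factor of neurons, was listed at 87.9 and 82.5 at 0 h and in 1 list each of the later times, with an exonic part of only 14 nt in 3 of the 4 lists. *Jarid2*, a partner of Polycomb repressive complex 2, stood at 73.4 and 83.7 at 6 h, and was listed at 26.7 in replicate 2 at 0 h and at 53.2 in replicate 2 at 24 h. *Msl3l2*, related to a chromatin-binding gene of the MSL complex, stood at 86.6 and 80.6 at 6 h, 16.1 and 79.4 at 0 h and 93.1 in replicate 2 at 24 h, opposite an exon of *Gm68032*. Its peaks were thus missing from Sham and from 1 list at 24 h only. *Pcdh10*, a protocadherin, stood at 83.3 and 76.8 at 24 h and was listed in 3 of the 4 lists of the earlier times. *Nfib* stood at 62.3 and 73.9 at 24 h and was listed in replicate 2 at 0 h and at 6 h, always with 78 nt and 9 nt from the start codon (chr4:82417507-82423045, minus strand). *Arhgap11a* stood at 66.2 and 61.2 at 24 h and at 38.2 in replicate 1 at 6 h. All of these 8 regions except that of *Catspere2* were thus listed in a single list of at least 1 other time.

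The leading lost 5' UTR regions were in *Wapl*, *Tmem178b* and *Cadm2* at 0 h, in *Mbnl2*, *Zc3h18* and *Tmem178b* at 6 h, and in *Wapl*, *Arf6* and *Zc3h18* at 24 h. *Mbnl2*, a regulator of splicing, was listed at 97.3 and 82.5 in Sham, 82.8 and 82.7 at 0 h and 82.7 and 82.1 at 24 h, and in neither 6 h list (chr14:120562288-120562612, plus strand). *Zc3h18*, a nuclear RNA-binding protein, was listed at 68.7 and 84.7 in Sham and 85.2 and 86.0 at 0 h, and in none of the 4 later lists. *Wapl*, which releases cohesin from chromatin, was listed at 73.7 and 74.1 in Sham and at 78.7 in replicate 2 at 6 h. *Cadm2*, a synaptic adhesion protein, was listed at 68.2 and 60.8 in Sham and at 39.7 in replicate 2 at 6 h. *Arf6*, a small GTPase of membrane traffic, was listed at 71.8 and 77.1 in Sham, 31.6 in replicate 1 at 0 h and 80.2 in replicate 1 at 6 h, opposite an exon of *Gm9887*. Of these 6 regions 4, those of *Wapl*, *Tmem178b*, *Cadm2* and *Arf6*, were thus listed in a single list of at least 1 time.

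In the 10 gene lists, regions of *Rbm15*, *Dvl1*, *Nr4a3* and *Rnf43* were gained or lost. Over all regions 3.79% to 4.94% were gained and 1.87% to 2.76% lost. The number of regions in the gene lists is not given here, so these cases cannot be set against those shares. A second region of *Rbm15* was gained at 6 h (10.2 and 41.6) and was also listed at 27.6 in replicate 2 at 0 h. A region of *Dvl1*, which relays the Wnt signal from the receptor, was gained at 0 h (22.3 and 35.2). A region of *Nr4a3*, an immediate early nuclear receptor, was lost at 0 h and was listed at 14.4 and 36.0 in Sham, 63.2 in replicate 1 at 6 h and 28.0 in replicate 1 at 24 h. A region of *Rnf43*, a ubiquitin ligase that removes Wnt receptors, was lost at 6 h and 24 h, with 5.68 and 4.24 in Sham and 4.10 and 1.24 at 0 h. All of these regions except that of *Nr4a3* in replicate 1 at 6 h ranked in the lower 50% of their lists.

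In all 6 MCAO/R lists and neither Sham list were 5 of the 2826 5' UTR regions (0.177%), against 0.261% of all regions. They lay in *Hnrnph2*, *Kcnj2*, *Nxph3*, *Prkd3* and *Pcdhga2*, and *Kcnj2* and *Prkd3* are shown in the same form as above. The bases shared by the 6 peaks held no RRACH site in *Hnrnph2*, the peaks of *Nxph3* shared no base, and *Pcdhga2* was not searched.
Kcnj2 (chr11:110962551-110962571, plus strand): ttttgcaaAAACTcagactgt
Prkd3 (chr17:79320673-79320693, minus strand): aaagcaaaAGACAagagcaga
*Kcnj2*, the inward rectifier potassium channel Kir2.1, was listed at 52.3 and 54.5 at 0 h, 71.3 and 60.1 at 6 h, and 50.0 and 56.1 at 24 h, 69 nt from the start codon. *Prkd3*, protein kinase D3, was listed at 62.6 and 36.5, 62.6 and 62.7, and 33.5 and 36.4 in the same order. *Hnrnph2*, an RNA-binding regulator of splicing, had percentiles of 57.0 to 73.0. *Nxph3*, a neurexophilin, had 33.6 to 68.8, and the protocadherin *Pcdhga2* had 29.1 to 70.8. In both Sham lists and no MCAO/R list were 11 regions (0.389%), against 0.371% of all regions. The 5 that ranked highest were in *Mapk4*, *Nlgn2*, *Srf*, *St13* and *Cdc42se1*, with percentiles from 29.8 to 56.5. *Nlgn2* is an adhesion protein of inhibitory synapses, *Srf* a transcription factor of activity-dependent genes and *St13* a cochaperone of Hsp70. The named regions of both patterns thus lay between 29.1 and 73.0, whereas the 12 leading regions lay above 92.9 in every list.

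**Figure D5:**
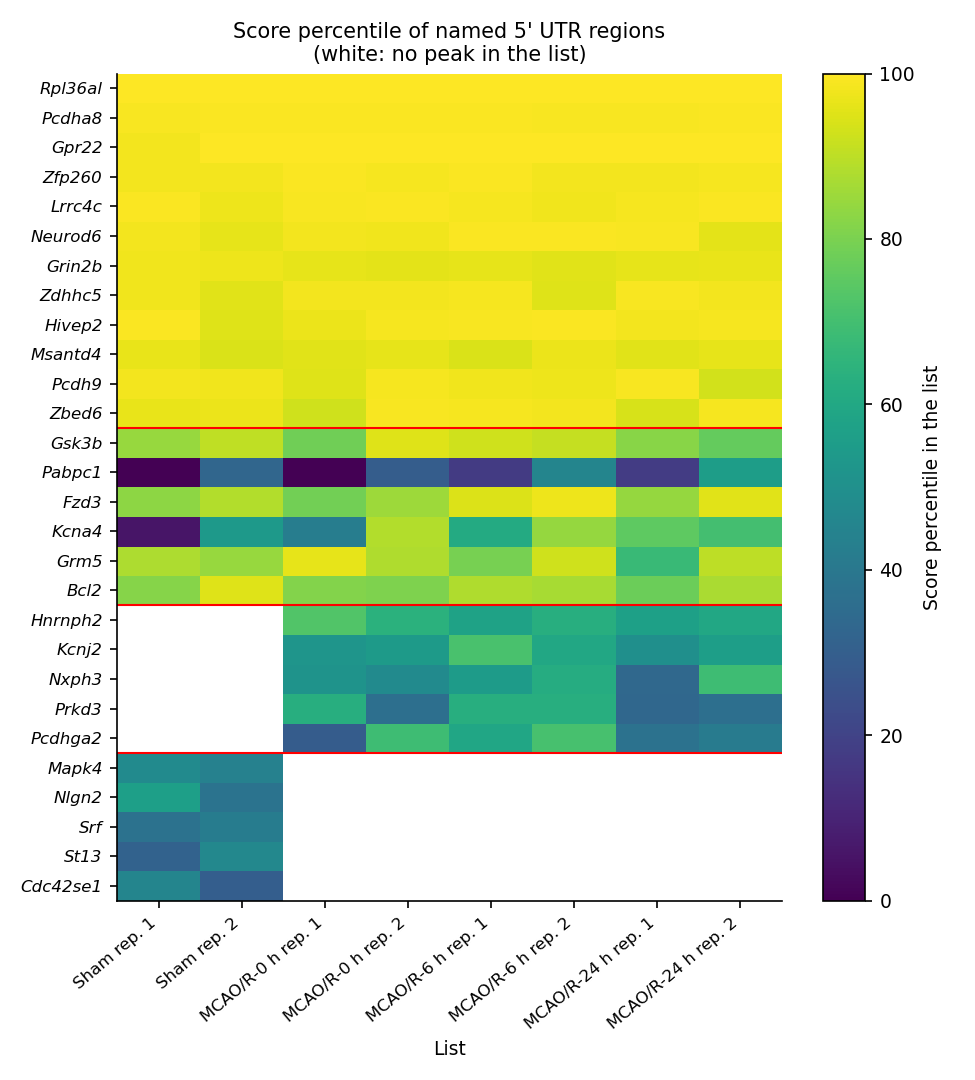
Score percentile (colour, 0 to 100) of named 5' UTR regions in the 8 lists, white where a list held no peak. From top to bottom, red lines separate the 12 highest-ranking regions of all 8 lists, 6 further regions of all 8 lists, the 5 found in all 6 MCAO/R lists and no Sham list, and 5 of the 11 found only in both Sham lists; the first block lies above 92.9 in every list.

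Whether the score rank of a recurrent region differed among the groups was tested on the 4735 regions of all 8 lists, 134 of them in the 5' UTR. With limma on normal scores of the ranks, 0 of the 134 and 0 of the 4735 regions (0%) passed a Benjamini-Hochberg adjusted p of 0.05 in the F-test or against Sham at any time. At an unadjusted p under 0.05 in the F-test were 10 of the 134 (7.46%) and 397 of the 4735 (8.38%). The smallest adjusted p of a 5' UTR region was 0.431 in the F-test and 0.284 in a contrast with Sham (limma). The fit had little power. In simulated scores of 4735 regions, the 24 h contrast found 10 of 100 planted shifts of 1 and 65 of 100 planted shifts of 2. It made 5 false calls. The absence of calls therefore does not show that the ranks stayed the same.

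The 5 regions with the smallest F-test p were in *Dhx32*, *Tigd2*, *Nfib*, *Dusp16* and *Lrfn3*, with adjusted p from 0.431 to 0.544 (limma). *Dhx32*, a putative RNA helicase, had percentiles of 78.4 and 79.4 in Sham, 62.9 and 78.5 at 0 h, 29.5 and 38.7 at 6 h, and 1.98 and 19.3 at 24 h (chr7:133361366-133361772, minus strand). Its 2 Sham values were above the 4 of the later times, and 24 h minus Sham was -2.27 ± 0.40 (SE; limma adjusted p = 0.325). *Tigd2* had 57.2 and 80.4 in Sham and 95.4 to 97.7 in the 6 MCAO/R lists, with no overlap, and a peak of 250 nt in both Sham lists and 650 to 700 nt in MCAO/R. Its difference from Sham was 1.20 ± 0.29, 1.32 ± 0.29 and 1.43 ± 0.29 at 0 h, 6 h and 24 h (SE; limma adjusted p = 0.559, 0.284 and 0.414). *Dusp16*, a MAP kinase phosphatase, had 54.6 and 57.4 in Sham and 69.7 to 90.4 in MCAO/R, also without overlap (limma F-test adjusted p = 0.544). *Nfib*, a transcription factor of glial and neuronal development, had 48.0 and 13.3 in Sham, 79.2 and 75.1 at 0 h, 74.0 and 56.8 at 6 h, and 26.3 and 3.96 at 24 h. *Lrfn3*, a synaptic adhesion protein, had 43.4 and 6.73 in Sham and 51.7 to 85.3 in MCAO/R. None of these differences passed the adjustment, and they were picked for their size.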

How the data were processed

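RNA of peri-infarct cortex was fragmented (to about 100 nt by the methods, about 200 nt by the sample records) and split into IP and input. Trim Galore 0.6.7 was used by the authors for trimming and HISAT2 2.2.1 for alignment to GRCm39. SAMtools then dropped reads that were unmapped or mapped more than once, and exomePeak2 called the peaks (p cutoff 0.05, log2 fold change cutoff 0.5). Each deposited peak carries a score of the caller, and no counts. Use of strand and the version of the caller are not given in the sources used here.

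Peaks are deposited as 1 block, introns included, so exonic parts were rebuilt from GENCODE M39. The placement and the limma fit were tested on simulated data, and the planted shifts that the fit found are given with its results. Python 3.11.15, numpy 2.4.6, scipy 1.17.1, matplotlib 3.10.9, R 4.3.3 and limma 3.58.1 were used. Even placement kept a midpoint far enough from the transcript ends for the whole peak to fit, except in the shares by first exon and exon junction. Groups were compared by one-sided exact permutation over all divisions into 4 pairs, and members with others or with even placement by two-sided exact sign flips over all lists. The 7 exact sign permutations all gave p = 0.00781, also after Benjamini-Hochberg adjustment. limma used normal scores of the ranks.

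The members, gene lists and tests were chosen with earlier results of these data known. Named genes were the 12 with the highest minimum percentile in all 8 lists, the 3 leading gained and lost regions per time, up to 4 genes per list, regions particular to Sham or MCAO/R lists, the 5 smallest F-test p-values, *Gsk3b*, and 4 genes named by the study. Alternatives were leaving out each list, the higher-scoring 50%, equal list lengths and other transcripts, windows, motifs, backgrounds and overlaps. Added after the data were seen were the 5' UTR of any transcript, shares of peaks on transcripts only, a background weighted by member, and dropping members opposite another exon.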

Additional observations from a re-analysis of the deposited data

How the results depend on the processing

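Depletion of the 5' UTR, nearness to the start codon, lower recurrence, lower score rank and shorter length of the members kept their direction and p under 0.05 in all settings run (exact permutation, p from 0.00781 to 0.0312), and so did the RRACH excess, except against other peaks of the list (log2 ratio -0.32). The MCAO/R excess of the 5' UTR share was 0.290 points with the higher-scoring 50% and 0.230 with equal list lengths, neither past the threshold, and 0.266 to 0.555 with 1 list left out. The cause was not tested. The 5' UTR of any transcript gave 0.521 (p = 0.0286, exact permutation).

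Measures without a group difference past the threshold changed sign. MCAO/R minus Sham for the median score percentile was 0.0768 as reported, -1.30 to 1.46 with 1 list left out, -0.678 with the higher-scoring 50%, -0.0773 with the longest transcript and -0.981 without members opposite another exon. For the RRACH log2 ratio it was 0.0417 as reported, -0.0307 to 0.114 with 1 list left out, -0.0244 with the higher-scoring 50%, -0.0454 with GGACT and -0.0477 with the weighted background. For the share near the start codon it was -0.879 points as reported, -1.52 to -0.238 with 1 list left out and 0.254 with equal list lengths.

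With 1 list left out the gained 5' UTR regions ranged from 76 to 441, 107 to 483 and 72 to 479 at 0 h, 6 h and 24 h, highest without replicate 1 of the time, and the lost ones from 30 to 298, 41 to 312 and 47 to 326, highest without Sham replicate 1, since one side then rests on a single list. With the higher-scoring 50% they were 25, 46 and 28 gained and 12, 11 and 14 lost. These counts stand without the share over all regions, so they do not show whether the 5' UTR regions moved apart from the rest. limma called 0 5' UTR regions, and 0 of all regions, in every setting that kept 2 lists per group. With 1 list left out, the lone list was assumed to vary like the others, so calls of those fits are not given.

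Deviations by replicate number correlated weakly between groups, and every correlation was positive (0.0406 to 0.0841 over 4735 regions). In every group the list with the higher replicate number was also the longer. What lists with the same replicate number have in common was not tested. With the replicate block, permuting within numbers, the 5' UTR share gave p = 0.0417 (the smallest of 24 arrangements, exact permutation). With that block limma called 0 regions, and no call changed. At an unadjusted p under 0.05 in the F-test were 19 of the 134 5' UTR regions, against 10 without the block. Over all 4735 regions the count also rose, to 476 from 397.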
